A study of Mus musculus with 6 samples.

Results

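The genes described here are 9 markers used to recognise immature and non-myelinating Schwann cells (SCs): S100b, Fabp7, Gap43, Scn7a, Foxd3, Ednrb, Gfap, Nes and Vim. They were matched by gene identifier to a table of exonic read counts of 55401 genes, and all 9 were among the 22318 genes with enough counts to be tested. The table holds bulk polyA RNA-seq of primary SC cultures, prepared from adult dorsal root ganglia, of which 3 are labelled WT and 3 PB1 -/-, called Plxnb1-/- or knockout here. The knockout mice carry Plxnb1tm1Matl, a gene trap on the C57BL/6 background that inserts a transmembrane segment, lacZ and neo into the gene for Plexin-B1, a receptor for class 4 semaphorins. The study used WT and heterozygous littermates as controls in its experiments, while the labels of these control libraries read WT. The labels give neither the sex of the mice nor an age beyond adult. All 6 cultures grew in medium with 2 µM forskolin, 10 nM neuregulin and 10% serum, and fibroblasts were removed with magnetic beads against Thy1. The cells were used at passages 3 to 5, where purity was put at over 80%. Nothing in the labels ties a library to a litter or a culture day, so the p-values measure only the spread between these samples.

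Schwann cells begin as neural crest cells, pass through a precursor and an immature stage, and then either wrap single large axons in myelin or ensheathe bundles of small axons as non-myelinating (Remak) cells. Immature and Remak cells share a set of proteins that myelinating cells lose, among them glial fibrillary acidic protein and growth-associated protein 43, and injured nerves regain part of this set. In culture without axons, SCs drift toward the immature state, and agents that raise cyclic AMP, such as forskolin, push them toward differentiation.

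The libraries held 59252048 to 77280964 counts in total, at which 3 counts make 0.0388 to 0.0506 CPM (counts scaled to library size, normalised by the TMM method), a floor for counting error only. The targeted gene Plxnb1 gave 61.8, 45.4 and 96.4 CPM for WT replicates 1, 2 and 3. Knockout replicates 1, 2 and 3 gave 13.1, 16.6 and 18.6 CPM. This order is kept for all values below. The Plxnb1 values take in all exons of the gene, while the study reports loss of the exons downstream of the trap cassette. For Plxnb1, the adjusted p was 0.0449 in edgeR's quasi-likelihood test and 2.74e-06 by DESeq2. The log2 fold change was -2.08 ± 0.25 (SE from edgeR, here and beside DESeq2 calls below). It stayed between -2.30 and -1.74 with single libraries left out, where DESeq2 called it each time, while edgeR's adjusted p was 0.0812 without WT replicate 1 and 0.246, 0.254 and 0.120 without knockout replicates 1, 2 and 3. The first principal component held 30.0% of the variance. WT replicates 1, 2 and 3 lay at -3.58, -47.4 and -7.52 on it, and Plxnb1-/- replicates 1, 2 and 3 at 10.3, 14.1 and 34.0. A pair of libraries stood apart at its ends, WT replicate 2 and Plxnb1-/- replicate 3. Because these are the extremes of an axis that also separates the genotypes, leaving out both reduces differences along it by construction. In Plxnb1-/- replicate 3, Xist was at 11.6 CPM and 4 genes of the Y chromosome summed to 157 CPM. Xist was at 218 to 260 CPM in the other 5 libraries, whose Y sums were 0 in the 3 WT libraries and 5.16 and 7.13 CPM in Plxnb1-/- replicates 1 and 2. Sox10, a transcription factor that marks the glial lineage, was high throughout, at 432 to 580 CPM. Fibroblast genes were present as well: 10 fibroblast markers summed to between 17262 and 21291 CPM in WT and between 15807 and 16555 CPM in Plxnb1-/- libraries. In bulk samples such as these, fewer cells of a type and less RNA per cell cannot be told apart.

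Across genotypes, 0 of the 9 markers passed edgeR's threshold (adjusted p under 0.05 and an absolute log2 fold change over 0.25), which 0.0358% of all tested genes passed, 0.00448% as higher in Plxnb1-/- SCs and 0.0314% as lower. DESeq2 called 1 of 9, Scn7a, as higher, where it called 1.50% of tested genes, 0.690% as higher and 0.811% as lower. The unadjusted edgeR p was under 0.05 for 2 of 9 markers, Scn7a and Gfap, against 13.7% of tested genes. The same pair were the markers whose 3 Plxnb1-/- values all lay above the 3 WT values, 22.2% of the markers where 9.30% of tested genes were separated in that direction and 19.7% in either. Of the log2 fold changes, 7 were above 0 and 2 below, with a median of 0.13 beside 0.005 over all tested genes. That median was 0.08 without WT replicate 2 and Plxnb1-/- replicate 3. The 95% interval of the difference, not adjusted for the number of genes, spanned 0 for 7 of the 9.

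The regions at the RefSeq start of 3 markers are shown. Scn7a and Gfap are the separated pair, and Foxd3 was taken for the cAMP response element found in its window. Every culture received forskolin, and any effect of it on Foxd3 was not tested. Each runs 5′ to 3′ from 250 bases before to 30 bases after the RefSeq start of the gene on GRCm38.p6, and capitals mark a searched motif:
Scn7a, chr2:66784881-66785160, minus strand: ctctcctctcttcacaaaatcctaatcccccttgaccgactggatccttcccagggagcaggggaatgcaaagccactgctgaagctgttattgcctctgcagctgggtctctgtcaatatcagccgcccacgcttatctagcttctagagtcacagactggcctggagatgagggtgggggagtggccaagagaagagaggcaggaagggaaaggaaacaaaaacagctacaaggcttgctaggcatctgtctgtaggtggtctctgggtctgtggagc
Gfap, chr11:102897171-102897450, minus strand: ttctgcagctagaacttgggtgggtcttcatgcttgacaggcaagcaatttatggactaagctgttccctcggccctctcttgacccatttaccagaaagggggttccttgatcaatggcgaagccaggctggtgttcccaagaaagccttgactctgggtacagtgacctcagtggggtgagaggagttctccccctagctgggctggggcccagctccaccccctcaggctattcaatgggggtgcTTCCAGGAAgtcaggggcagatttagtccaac
Foxd3, chr4:99656049-99656328, plus strand: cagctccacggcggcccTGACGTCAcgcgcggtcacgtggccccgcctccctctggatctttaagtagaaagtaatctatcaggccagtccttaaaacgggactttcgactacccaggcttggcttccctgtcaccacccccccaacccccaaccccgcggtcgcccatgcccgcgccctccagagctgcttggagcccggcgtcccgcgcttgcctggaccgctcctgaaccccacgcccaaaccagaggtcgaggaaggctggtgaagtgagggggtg
Such windows were found for 8 of the 9 markers, all but Gap43, and searched on both strands for the TATA box (TATAAA), the CCAAT box (CCAAT), the cAMP response element (TGACGTCA), a SOX core (ACAAAG) and a STAT site (TTCNNNGAA). The cAMP response element of Foxd3, which begins at base -233, was the only one among the 8 windows, and 1.74% of 32817 mouse promoter windows of this length hold one. Gfap has a STAT site beginning at base -2, a motif held by 7.83% of windows. That base counts from the RefSeq start, and the Gfap window lies inside the gene as GENCODE places it, chr11:102887336-102900912 on the minus strand. The Scn7a window holds none of the 5 motifs. A CCAAT box lies in 4 of the 8 windows, those of S100b, Fabp7, Ednrb and Vim, against 36.1% of all windows, and Vim alone has the TATA box, which 13.1% hold. The SOX core is in 0 of the 8 and in 17.9% of all windows. A match of letters describes the sequence and does not show that a factor binds there.

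The levels of the 9 markers, set on a common scale of CPM per kilobase of merged exon, covered a 143-fold range. Vim stood highest at 513 ± 20.1 in WT and 485 ± 9.08 in Plxnb1-/- SCs (SD, n = 3), followed by Nes at 268 ± 30.4 and 294 ± 18.4. Fabp7, Foxd3 and Ednrb formed a middle tier with means over the 6 libraries of 52.1, 41.7 and 35.5 CPM per kb. Gfap averaged 18.5, and the lowest tier held S100b at 5.12, Gap43 at 3.76 and Scn7a at 3.50. The order of neighbours was the same in all 6 libraries except that Foxd3 exceeded Ednrb in 5 of 6 and Gap43 exceeded Scn7a in 4 of 6. The ranges over libraries overlapped for those pairs and for S100b with Gap43, so the levels of these neighbours lie within each other's spread, although S100b exceeded Gap43 within each of the 6 libraries. On this scale S100b, whose protein is a standard stain for SCs, was thus among the 3 lowest transcripts of the set. The counts come from an aligner that does not span introns, so levels of genes with many short exons may be understated. The markers hold from 1 exon block (Foxd3) to 25 (Scn7a).

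**Figure D1:**
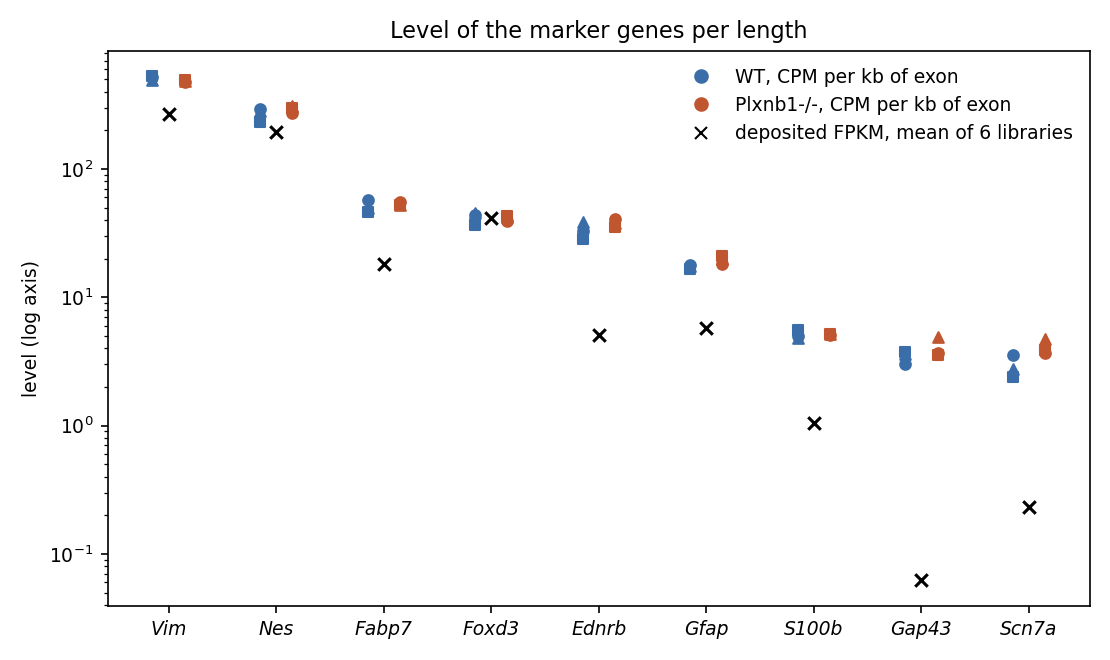
Level of each marker on a log axis, as CPM per kb of merged exon for each library (circles, squares and triangles for replicates 1, 2 and 3; WT left and blue, Plxnb1-/- right and orange) and as the mean of the deposited FPKM over 6 libraries (crosses). Vim and Nes lie above the rest in every library, while the crosses for Gap43 and Scn7a fall far below their circles because the deposited FPKM divides by the span of the gene, introns included.

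The deposited FPKM values give a different order for part of the set. They match division by the full span of the gene to within 1% for 99.4% to 99.5% of genes compared in each library and division by exon length for 12.8% to 13.6%. The span is 60.5 times the exon length for Gap43 and 15.2 times for Scn7a, but 1.00 times for Foxd3, which has a single exon. On the FPKM scale Foxd3 therefore ranks just behind Vim and Nes, at 41.7, above Fabp7 at 18.3, and Gap43 ranks last at 0.0621. Of the 36 pairs of markers, 33 keep their order on both scales.

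Spread between libraries also differed among the markers. From the lowest to the highest library, Scn7a covered 0.98 log2 units and Gap43 0.70, whereas Vim covered 0.16. The WT range was wider than the Plxnb1-/- range for 7 of the 9, the exceptions being Gap43 and Gfap. WT replicate 2 gave the lowest value of 6 markers, and Plxnb1-/- replicate 3 the highest value of 3.

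**Figure D2:**
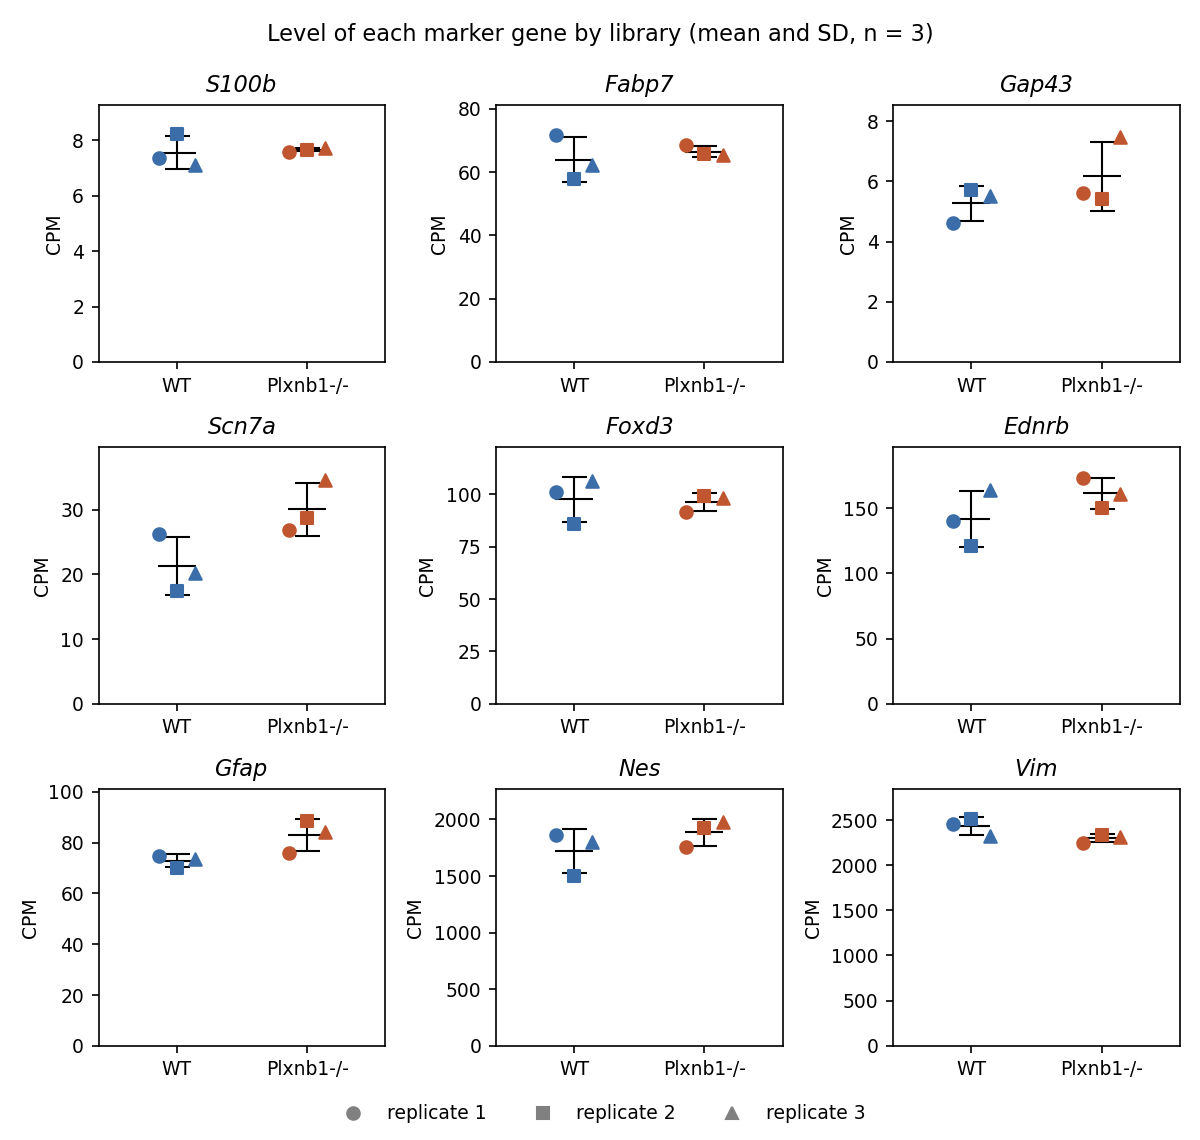
CPM of each marker in the 3 WT (blue) and 3 Plxnb1-/- (orange) libraries, with replicate number by symbol and the mean and SD as bars; every axis starts at 0. The genotypes are separated for Scn7a and Gfap and overlap for the other 7 markers.

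The cytoplasmic binding proteins came first in the comparison of genotypes. S100b encodes a calcium-binding protein of glia and lies at chr10:76253853-76261159 on the plus strand (GRCm38; 3 exons), with Dip2a running over it on the opposite strand but sharing no exon base. WT replicates 1, 2 and 3 gave 7.36, 8.22 and 7.09 CPM, and knockout replicates 1, 2 and 3 gave 7.59, 7.66 and 7.70 CPM. All Plxnb1-/- values fell inside the WT range. The log2 fold change was 0.02 ± 0.08 (SE), with a 95% interval of -0.16 to 0.20 and an adjusted p of 0.941 by edgeR. Of 11 other S100 genes 9 were tested, 5 with values above 0 and 4 below and a median of 0.08, and none was called. S100a3 had the highest log2 fold change among those with a mean of at least 1 CPM, 0.31 ± 0.18, and S100a1 the lowest, -0.11 ± 0.09.

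Fabp7, the brain-type fatty acid binding protein that marks SC precursors and immature glia (chr10:57784881-57788450, plus strand), had 71.7, 57.7 and 62.2 CPM across the WT libraries, compared with 68.5, 65.6 and 65.3 CPM across the knockout libraries. The WT values again enclosed the Plxnb1-/- values. The log2 difference was 0.06 ± 0.07 (95% interval -0.11 to 0.22), the edgeR adjusted p was 0.776, and without WT replicate 2 the difference was -0.01. Among the other fatty acid binding protein genes, 3 of 8 were tested, 4 had no count in any library, and Fabp5, the epidermal form, averaged 142 ± 16.1 CPM for WT and 162 ± 12.7 CPM for knockout libraries (SD, n = 3). Its log2 difference of 0.20 ± 0.09 had an edgeR adjusted p of 0.358, and Fabp3, the heart form, gave -0.36 ± 0.23, a sign that turned without the libraries standing apart, where 3 of 3 were above 0.

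Gap43, a membrane phosphoprotein of growing axons and of immature and Remak SCs (chr16:42248442-42340651, minus strand), measured 4.61, 5.71 and 5.52 CPM in WT libraries. The Plxnb1-/- libraries gave 5.62, 5.41 and 7.49 CPM, of which only replicate 3 lay above every WT value. The log2 fold change of 0.22 ± 0.14 (95% interval -0.10 to 0.54, edgeR adjusted p = 0.514) became 0.06 without that replicate. Of 6 other growth-associated phosphoproteins, 3 had values above 0 and 3 below. Basp1, a membrane phosphoprotein with properties close to those of Gap43, was called lower by DESeq2: 84.3, 88.5 and 92.9 CPM for WT against 71.8, 63.0 and 62.8 CPM for knockout libraries. Its log2 fold change was -0.43 ± 0.06, with adjusted p-values of 1.03e-05 by DESeq2 and 0.113 by edgeR. Stmn2, a microtubule regulator of neurons, gave 0.36 ± 0.15 with Plxnb1-/- replicate 3 highest at 15.6 CPM, and 0.14 without it.

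Scn7a, which encodes the sodium channel-like protein Nax that non-myelinating SCs carry (chr2:66673425-66784914, minus strand, 25 exon blocks), showed the widest difference of the set. WT replicates 1, 2 and 3 had 26.2, 17.5 and 20.2 CPM, and Plxnb1-/- replicates 1, 2 and 3 had 26.8, 28.7 and 34.6 CPM. The genotypes did not overlap, although WT replicate 1 and Plxnb1-/- replicate 1 were the closest pair across genotypes. The fold was 1.41, or 0.50 ± 0.14 on the log2 scale (95% interval 0.17 to 0.82). By edgeR the adjusted p was 0.273, and by DESeq2 it was 0.0239. Testing every gene with a count, with no filter, brought edgeR's adjusted p to 0.0413, a setting that called 0.949% of 31191 genes. DESeq2's call was lost without WT replicate 2 (log2 fold change 0.37, adjusted p = 0.130), WT replicate 3 (0.46, adjusted p = 0.152), Plxnb1-/- replicate 2 (0.53, adjusted p = 0.132) or Plxnb1-/- replicate 3 (0.38, adjusted p = 0.464). Without both libraries that stood apart, the log2 fold change was 0.26, with an edgeR adjusted p of 0.788.

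The true sodium channel subunits summed to 52.8 to 59.1 CPM in WT and 61.2 to 62.8 CPM in Plxnb1-/- libraries. Of 13 such genes 12 were tested, 10 with values above 0 and 2 below, with a median of 0.33 that became 0.08 without the libraries standing apart, and 0 were called by edgeR or DESeq2. The mean of 6 of the 13 was under 1 CPM. Scn10a, a channel of sensory neurons, averaged 1.41 ± 0.293 CPM for WT and 2.31 ± 1.15 CPM for knockout libraries, with the highest value, 3.53 CPM, in Plxnb1-/- replicate 3, and its log2 difference of 0.70 ± 0.34 was 0.27 without it. Scn2b, an auxiliary subunit, had the lowest value of the group, -0.30 ± 0.24.

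**Figure D3:**
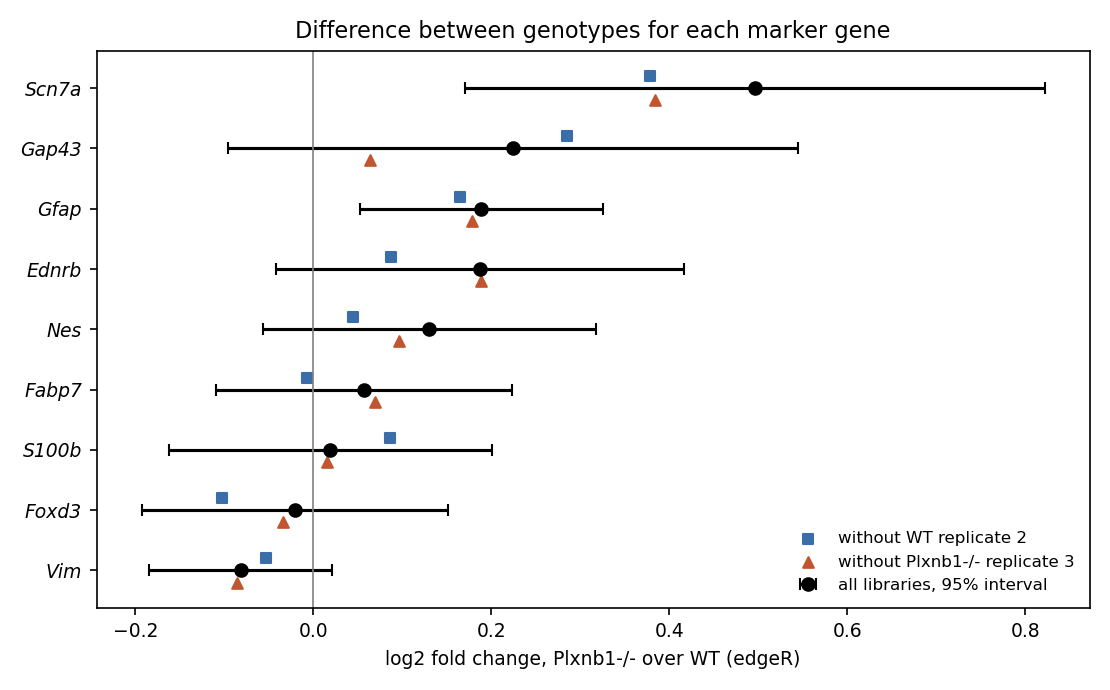
Log2 fold change of each marker, Plxnb1-/- over WT, from edgeR with all libraries (black circles, with 95% intervals not adjusted for multiple testing), without WT replicate 2 (blue squares) and without Plxnb1-/- replicate 3 (orange triangles). The intervals of Scn7a and Gfap lie above 0, and Scn7a is at 0.50 with all libraries and at 0.38 in either reduced fit.

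Foxd3, a forkhead transcription factor of the neural crest and its early glial derivatives, lies at chr4:99656299-99658622 on the plus strand and shares 89 bases with a microRNA gene, Gm23366, which drew 111 counts over all libraries. The WT libraries held 100.9, 85.6 and 106.3 CPM and the knockout libraries 91.5, 99.2 and 98.0 CPM, so that every Plxnb1-/- library lay within the WT range. The log2 difference of -0.02 ± 0.08 (95% interval -0.19 to 0.15) had an edgeR adjusted p of 0.931, and its sign turned when WT replicate 1, WT replicate 3 or Plxnb1-/- replicate 1 was left out. Other neural crest transcription factors were mixed. Of 8 such genes 7 were tested, 2 with values above 0 and 5 below, with a median of -0.34 that was -0.15 without the libraries standing apart. DESeq2 called Sox5, an SRY-box factor, higher at a log2 fold change of 0.27 ± 0.06 (adjusted p = 0.0278), and Foxd1, another forkhead factor, lower at -0.36 ± 0.09 (adjusted p = 0.0242). Both had an edgeR adjusted p over the threshold, 0.266 for Sox5 and 0.273 for Foxd1. DESeq2 kept Sox5 without WT replicate 1 but not without any other single library, where its log2 fold change was 0.21 to 0.30, and it lost Foxd1 without WT replicate 2 or any 1 of the knockout replicates, at -0.41 to -0.29. Pax3, a paired-box factor near 1 CPM, gave 0.40 ± 0.38, and 0.03 without WT replicate 2, and Msx2 gave -0.65 ± 0.37, within -0.98 to -0.32 when single libraries were left out.

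Ednrb encodes the endothelin B receptor, whose signal delays the maturation of SC precursors (chr14:103814625-103844402, minus strand). Its WT values were 140.5, 120.8 and 164.2 CPM, and its knockout values 173.3, 149.8 and 161.3 CPM. The groups overlapped, with WT replicate 2 lowest and Plxnb1-/- replicate 1 highest. The log2 difference was 0.19 ± 0.10 (95% interval -0.04 to 0.42, edgeR adjusted p = 0.449) and 0.09 without WT replicate 2. Of 6 other genes of the endothelin system, 4 were tested and all 4 had values below 0, with a median of -0.14 (3 of 4 below, median -0.07, without the libraries standing apart), and 0 were called by edgeR or DESeq2. Ednra, the A-type receptor of contractile and mesenchymal cells, had 48.8, 74.3 and 63.1 CPM among WT libraries beside 50.5, 51.2 and 49.4 CPM among knockout libraries, a log2 difference of -0.30 ± 0.12 that was -0.15 without WT replicate 2. Ece1, the enzyme that activates endothelins, had the value nearest 0, -0.02 ± 0.04.

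The intermediate filament genes held the remaining markers. Gfap, the glial filament of immature and Remak SCs (chr11:102887336-102900912, minus strand), reached 74.9, 70.0 and 73.7 CPM with WT cells, and 76.1, 88.7 and 84.4 CPM with knockout cells. Each Plxnb1-/- library lay above each WT library, by the narrowest margin between WT replicate 1 and Plxnb1-/- replicate 1. The fold was 1.14, a log2 difference of 0.19 ± 0.06 (95% interval 0.05 to 0.33). Its adjusted p was 0.290 by edgeR and 0.133 by DESeq2, and the difference stayed between 0.14 and 0.25 when each library was left out in turn. By DESeq2 without Plxnb1-/- replicate 1, Gfap had an adjusted p of 0.0220 and missed the fold threshold at 0.245.

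Nes, which encodes nestin of progenitor cells (chr3:87971078-87980451, plus strand), gave 1865, 1500 and 1801 CPM for the WT and 1752, 1927 and 1976 CPM for the knockout libraries. WT replicate 2 was lowest, and the other WT libraries fell between the Plxnb1-/- values. The log2 difference of 0.13 ± 0.08 (95% interval -0.06 to 0.32, edgeR adjusted p = 0.515) was 0.04 without WT replicate 2. Vim, vimentin, a filament of mesenchymal and immature glial cells alike (chr2:13573927-13582826, plus strand), had 2454, 2516 and 2328 CPM among WT libraries and 2250, 2332 and 2314 CPM among knockout libraries. Its values overlapped by a narrow margin between WT replicate 3 and Plxnb1-/- replicate 2. The log2 difference of -0.08 ± 0.05 (95% interval -0.18 to 0.02) had an edgeR adjusted p of 0.458. Of 8 genes for partners of these filaments 7 had values above 0 and 1 below, which became 3 above and 5 below without the libraries standing apart, and none was called. Ina, a neuronal filament near 1 CPM, gave 0.39 ± 0.41, and -0.15 without Plxnb1-/- replicate 3, and Des, the muscle filament desmin, gave -0.41 ± 0.13 with the genotypes separated.

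Other genes of the immature and non-myelinating state were set beside the markers. All 12 were tested, all 12 had log2 fold changes above 0, the median was 0.20, and 6 were separated between genotypes, against 9.30% of tested genes in that direction. edgeR called none, and DESeq2 called Chl1, a cell adhesion molecule of the L1 family. Chl1 had 356, 284 and 326 CPM among WT libraries and 414, 427 and 479 CPM among knockout libraries, a log2 fold change of 0.45 ± 0.09 with adjusted p-values of 0.228 by edgeR and 2.26e-04 by DESeq2. Ncam1, another adhesion molecule, gave the smallest value of the list, 0.04 ± 0.05. Without the pair of libraries standing apart, 11 of the 12 were above 0, with a median of 0.09.

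Genes of the myelinating state did not lie on the other side of 0. Of 12 such genes 11 had values above 0, with a median of 0.29 that was 0.12 without the libraries standing apart. Of the 12, 2 were separated with knockout higher, against 9.30% of tested genes in that direction. Prx, which encodes periaxin of the myelin sheath, was called higher by DESeq2 and not by edgeR: 77.9, 65.2 and 85.4 CPM for WT against 93.6, 133 and 139.9 CPM for knockout libraries, a log2 fold change of 0.68 ± 0.15 with adjusted p-values of 2.32e-04 and 0.266. DESeq2's call on Prx was lost without WT replicate 1 (log2 fold change 0.69, adjusted p = 0.0793) or WT replicate 2 (0.58, adjusted p = 0.262). Ncmap, a further myelin protein, gave -0.03 ± 0.12. Of the repair SC genes, 9 of 11 tested were above 0, with a median of 0.05. An unadjusted edgeR p under 0.05 was found for 4 of these 11 repair genes, against 13.7% of tested genes. The same held for 6 of the 12 myelinating genes and 8 of the 12 other immature and non-myelinating genes. Of the repair genes, 2 were separated with knockout higher, against 9.30% of tested genes in that direction. Of the 11, 0 were called by edgeR or DESeq2, and 6 were above 0 without the libraries standing apart. Btc, the growth factor betacellulin, gave 0.30 ± 0.11, or 0.18 without WT replicate 2, and Bdnf, a neurotrophin, -0.06 ± 0.09. Whether the markers differed from these lists in their response was not tested.

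**Figure D4:**
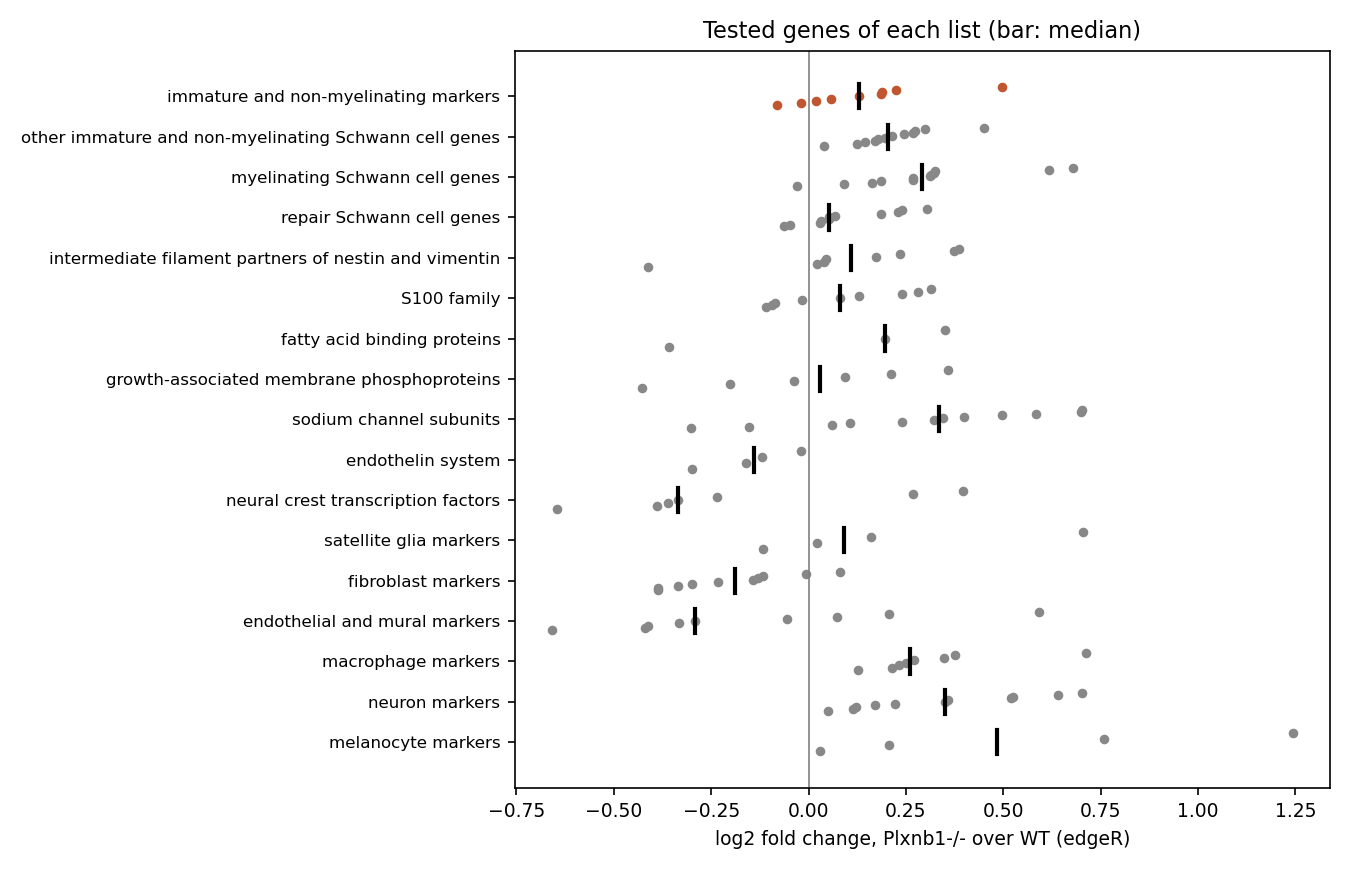
Log2 fold change of every tested gene, Plxnb1-/- over WT, for the 9 markers (orange) and 16 further gene lists (grey), with the median of each list as a black bar. The medians are 0.13 for the markers, 0.20 for other immature and non-myelinating genes and 0.29 for myelinating genes, and -0.19 for fibroblast markers.

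Markers of other cell types moved between the genotypes too. Of 10 fibroblast genes 9 had values below 0, with a median of -0.19, and 5 were separated with Plxnb1-/- lower, against 10.4% of tested genes in that direction. Col1a1, a collagen chain, was called lower by DESeq2 at -0.30 ± 0.08 (adjusted p = 0.0258, edgeR 0.273), Thy1, the antigen used for depletion, passed neither tool's threshold at -0.39 ± 0.13 (-0.19 without WT replicate 2), and Lum gave 0.08 ± 0.07. Without the libraries standing apart, 7 of the 10 were below 0, with a median of -0.11. WT replicate 2, lowest for 6 of the 9 markers, had the highest fibroblast sum, 21291 CPM. Endothelial and mural genes were below 0 in 6 of 9, among them Acta2, smooth muscle actin, called lower by DESeq2 at -0.42 ± 0.12 (adjusted p = 0.0172, edgeR 0.273), and Pecam1 at -0.66 ± 0.31, while Myh11 gave 0.21 ± 0.29. Without WT replicate 2, Col1a1 was at -0.19, Acta2 at -0.26, Pecam1 at -0.25 and Myh11 at -0.08. Without the libraries standing apart, the median of this list went from -0.29 to -0.06. Its sum was 1352 to 1832 CPM in WT and 1158 to 1283 CPM in Plxnb1-/- libraries.

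Macrophage genes were above 0 in 8 of 8, at a median of 0.26 that was 0.37 without the libraries standing apart, with sums of 121 to 147 CPM in WT and 159 to 175 CPM in Plxnb1-/- libraries. DESeq2 called C1qb, a complement chain, at 0.38 ± 0.09 (adjusted p = 0.0215) and Lyz2, lysozyme, at 0.35 ± 0.08 (adjusted p = 0.00595), both with an edgeR adjusted p of 0.266, and Cd68 had the smallest value among genes of at least 1 CPM, 0.13 ± 0.10. Neuron genes were above 0 in 11 of 11, at a median of 0.35 that was 0.09 without the libraries standing apart, with sums of 158 to 171 CPM in WT and 174 to 201 CPM in Plxnb1-/- libraries, the highest in Plxnb1-/- replicate 3. Rbfox3, which marks neuronal nuclei, stayed between 0.308 and 0.736 CPM, and Nefh, a neurofilament, gave 0.05 ± 0.33, or -0.28 without Plxnb1-/- replicate 3. Satellite glia, which surround sensory neurons and share genes with SCs, had 3 of 4 tested genes above 0, from Slc1a3 at 0.71 ± 0.19 to Gja1 at -0.12 ± 0.06, and a sum of 972 to 1078 CPM in WT and 1079 to 1104 CPM in Plxnb1-/- libraries. Melanocyte genes, another crest derivative, summed to 9.72 to 11.3 CPM, with 4 of 4 tested above 0, from Mitf at 0.03 ± 0.08 to Pmel at 0.21 ± 0.17 among those of at least 1 CPM. None of the markers of other cell types was called by edgeR. Of the 9 genes in all lists besides the markers that DESeq2 called, 2, Chl1 and Basp1, kept the call in all 6 fits with a single library left out. The other 7 lost it in at least 1, among them Acta2 and Lyz2 without Plxnb1-/- replicate 3 and C1qb without WT replicate 2. Without WT replicate 2, Col1a1 fell below the fold threshold at -0.19, with a DESeq2 adjusted p of 0.00995. Without Plxnb1-/- replicates 1, 2 and 3 its DESeq2 adjusted p was 0.112, 0.121 and 0.362. The part these cells had in the values of Scn7a, Gfap and Vim was not tested.

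**Figure D5:**
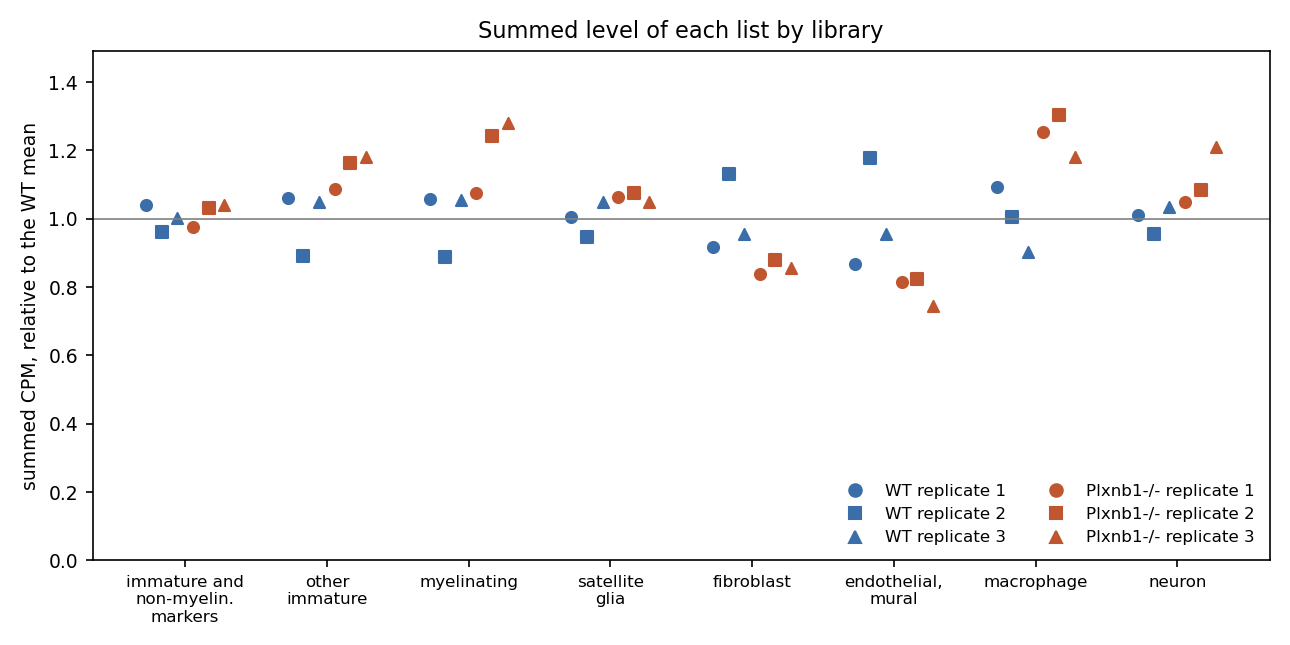
Summed CPM of the 9 markers and of lists for SC states and other cell types in each library, divided by the mean of the 3 WT libraries, so that the grey line at 1 is the WT mean. The marker sums, of which Vim and Nes make up 89.9% to 91.7%, overlap between genotypes, between 0.960 and 1.04 in WT and between 0.975 and 1.04 in Plxnb1-/- libraries, whereas the fibroblast sums lie between 0.916 and 1.13 in WT and between 0.839 and 0.878 in Plxnb1-/- libraries.

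For the 2 markers of widest range, the genes with the most similar profile were sought by the root mean square difference of centred log2 CPM over the 6 libraries, among 14991 other genes with a mean of at least 1 CPM. Scn7a was followed most closely by Katnal2, at 0.032 log2 units, then Mab21l3 at 0.043 and Mamstr at 0.061, where the median gene lay 0.333 away. Gap43 was followed by Ret, the receptor for glial cell line-derived neurotrophic factor, at 0.038, then Ifi35 and Ifitm3, both interferon-responsive genes, each at 0.047, with a median gene at 0.223. These likenesses over 6 libraries are descriptions with no test.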

How the data were processed

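Bulk polyA RNA-seq of cultured SCs from 3 WT and 3 Plxnb1-/- samples was analysed, grouped by the genotype in the sample labels. Reads were trimmed with Trim Galore 0.6.5, aligned to mm10 with Bowtie2 2.4.1, which does not span introns, cleared of duplicates with SAMtools 1.10 and counted on GENCODE exons by the authors with FeatureCounts, so the deposited counts are whole numbers per gene without normalization. Reads across splice junctions may be lost by such an aligner, so levels of genes with many short exons may be understated. The library kit keeps strand, and the strand setting of the counting is not given in the sources used here. The authors also deposited FPKM values computed from these counts, whose length term is the span of the gene.

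Of 55401 genes, 55141 matched GENCODE M21 on GRCm38, used for symbols, positions and exon lengths; it is older than the release the authors used. Testing took in genes that reached 2 counts in 5 or more of the 6 libraries and used edgeR 4.0.16 under R 4.3.3 (TMM, quasi-likelihood test, no term besides genotype), with Benjamini-Hochberg adjustment over all tested genes. DESeq2 1.42.0, the tool the study names, and limma 3.58.1 served as alternatives. SEs, also those beside DESeq2 calls, are edgeR's log2 fold change over the square root of F. The 95% intervals use the degrees of freedom of that test. The scripts were tested on simulated counts. Total counts and the floors they give cover counting error only. No 2 libraries held identical values.

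The 9 markers and the gene lists were chosen with earlier results of these data known. Named genes are all markers, Plxnb1, the highest and lowest log2 fold change in each list among genes with a mean of at least 1 CPM, any list gene called by edgeR or DESeq2, and the genes closest in profile to the 2 markers of widest range. Sox10, Thy1, Rbfox3, Xist and the Y-linked genes Ddx3y, Uty, Kdm5d and Eif2s3y were named after their values had been seen, to describe the libraries. Alternatives covered normalization, tool, unit, filter, fold threshold, a term for replicate number and each library left out. Fits without both libraries that stood apart and DESeq2 fits with libraries left out were chosen after seeing the data. The study's staining and animal experiments were not used here.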

Additional observations from a re-analysis of the deposited data

How the results depend on the processing

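Across 225 log2 fold changes of the 9 markers under 25 alternatives each, 211 kept their sign and their side of the threshold, 10 changed sign and 4 passed it, all 4 for Scn7a. Of all genes tested, 8 were called by edgeR, 335 by DESeq2, 296 without a filter on low counts, 3 by limma on log2(FPKM + 0.1), 3 on log2(FPKM + 1) and 5 with the replicate block. With a single library left out, edgeR called 4 (without Plxnb1-/- replicate 2 or 3) to 25 (without WT replicate 2) and DESeq2 called 946, 162 and 219 without WT replicates 1, 2 and 3 and 281, 124 and 51 without Plxnb1-/- replicates 1, 2 and 3. Without both WT replicate 2 and Plxnb1-/- replicate 3, edgeR called 33 and DESeq2 52. Among the markers, DESeq2 called 1, as did edgeR without a filter, and DESeq2 called 0 to 1 with a library left out; it was Scn7a each time, kept without WT replicate 1 (log2 fold change 0.67) or Plxnb1-/- replicate 1 (0.57). With libraries left out, edgeR's value ranged from -0.12 to 0.046 for Foxd3, from -0.0070 to 0.15 for Fabp7 and from -0.025 to 0.087 for S100b. Foxd3 turned above 0 without WT replicate 1 (DESeq2 0.0027), WT replicate 3 (0.044) or Plxnb1-/- replicate 1 (0.012), while Fabp7 turned below 0 without WT replicate 2 (DESeq2 -0.011) and S100b without WT replicate 3 (-0.027). The cause was not tested. The replicate block changed no call of a marker; same-numbered libraries of the genotypes correlated at -0.022, 0.0078 and 0.065 in their deviations, so the numbers were not taken as pairs. The median of the markers ranged from 0.068 to 0.164 with a library left out. With 3 libraries per genotype, differences of the size of most markers here lie within the intervals given, and absence of a call does not show equal expression.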
